A study of Polistes metricus with 16 samples.

Results

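In the brains of the paper wasp Polistes metricus, 200 transcripts stood low in wasps where the most abundant transcript stood high, and high where it stood low. They were chosen by their measured values. Each transcript's level was written as log2(CPM + 0.5), where CPM is its count over the library total, times 1000000, and its Pearson correlation with the most abundant identifier, PmetTSAr2.0-083229, was taken over all 16 libraries. The 200 of lowest correlation were kept from 55864 identifiers with 10 or more counts in at least 4 libraries, out of 127674 in all. PmetTSAr2.0-083229 is called the anchor below, and the 200 are called the opposing transcripts. Their correlation with the anchor therefore describes the choice and is not tested.

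Paper wasp queens, called foundresses, found nests in spring, and their daughters serve later in the year as workers. Wasp brains hold visual centres and mushroom bodies, which take part in learning, and P. fuscatus, the other species used here, is known for recognising nestmates by facial markings. A CPM value is a share of a library, so when abundant transcripts take more of the counts, the CPM of every other transcript becomes smaller even where its own RNA is unchanged. Fewer cells of a type and less RNA per cell also cannot be told apart in RNA from a whole brain. The file does not pair identifiers with gene names, so no role can be given to a member, and the brain label was not checked against marker genes.

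Each library came from the brain of 1 adult female P. metricus, collected in Ann Arbor, Michigan. Foundresses trained to simple patterns were the wasps M1, M15, M4 and M5, collected in May 2012, and foundresses trained to P. fuscatus faces were M30, M67, M79 and M91, collected in June 2012. Workers moved to a conspecific nest that was not their own were MW21 (June), MW25, MW40 and MW42 (July), and workers moved to an allospecific nest, that of P. fuscatus, were MW30, MW32, MW41 and MW47 (July). Workers stayed on the new nest for a week or more before they, too, were trained to P. fuscatus faces. All 16 wasps went through 40 trials in a negatively reinforced T-maze and were frozen 30 minutes after the last. No untrained wasps are among these groups, and month goes with stimulus among foundresses and nearly with caste, so these cannot be told apart. Total counts ran from 14949149 in MW40 to 22832434 in M5.

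The anchor took between 0.267% of all counts in MW41 and 3.60% in M1, a 13.5-fold range. In foundresses trained to patterns it stood at 35972 CPM in M1, 31790 in M15, 17778 in M4 and 29926 in M5. In foundresses trained to faces it stood at 16429 CPM in M30, 21033 in M67, 12172 in M79 and 23384 in M91. Foundresses trained to patterns were high apart from M4, which lay within the range of those trained to faces. Among workers from conspecific nests it stood at 35343 CPM in MW21, 6932 in MW25, 8317 in MW40 and 20689 in MW42. Among workers from allospecific nests it stood at 6637 CPM in MW30, 23234 in MW32, 2671 in MW41 and 13879 in MW47. Each worker group thus held wasps with low and with high levels, and the 4 lowest levels of all 16 wasps were in workers.

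The 200 opposing transcripts together took 0.355% of the counts in M1 and 0.604% in MW41, a 1.70-fold range. Their summed share was 0.389% ± 0.0339 after training to patterns and 0.439% ± 0.0361 after training to faces in foundresses (SD, n = 4 each). In workers it was 0.459% ± 0.0776 on conspecific nests and 0.504% ± 0.0816 on allospecific ones (SD, n = 4 each). MW41, MW40, MW30 and MW25 held the 4 highest shares and were the 4 wasps with the lowest anchor. M1, MW21, M15 and M5 held the 4 lowest shares and were the 4 with the highest anchor. The wasps at both ends included workers, and neither end was made up of 1 group.

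**Figure D1:**
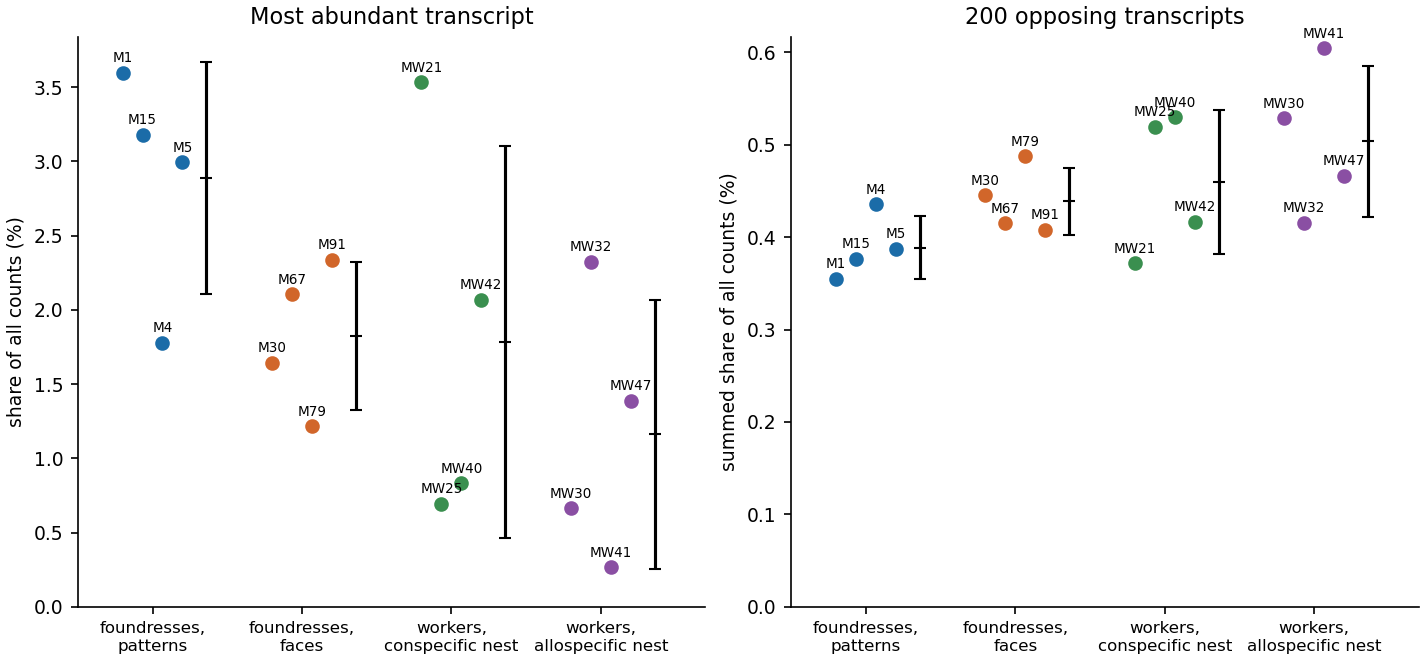
Share of all counts (%) taken by the most abundant transcript (left) and by the 200 opposing transcripts together (right) in each of the 16 wasps, by group, with the mean and SD of each group of 4 beside the points. The order of the wasps on the right is nearly the reverse of that on the left, from MW41 (0.267% and 0.604%) to M1 (3.60% and 0.355%), as the choice of transcripts makes it.

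PmetTSAr2.0-038193 had the lowest correlation with the anchor, at -0.96. Foundresses trained to patterns held 11.4 CPM of it in M1, 13.5 in M15, 14.8 in M4 and 13.1 in M5, and foundresses trained to faces held 15.1 CPM in M30, 14.3 in M67, 17.2 in M79 and 14.1 in M91. Workers from conspecific nests held 12.7 CPM in MW21, 19.1 in MW25, 20.9 in MW40 and 14.6 in MW42, and workers from allospecific nests held 21.2 CPM in MW30, 15.7 in MW32, 24.0 in MW41 and 17.4 in MW47. Levels of 19 CPM or more were found in 4 workers alone, while MW21 stood among the lowest foundresses, so workers and foundresses overlapped. These levels rest on 216 to 435 counts in each library. The spread over wasps was 0.29 on the log2 scale (SD, n = 16), against 0.0835 from counting alone. Counting error thus made up a small part of the spread.

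PmetTSAr2.0-022012 followed with a correlation of -0.96 and a smaller range. Foundresses trained to patterns held 18.9 CPM of it in M1, 18.5 in M15, 19.7 in M4 and 17.4 in M5, and foundresses trained to faces held 20.2 CPM in M30, 19.7 in M67, 20.9 in M79 and 20.1 in M91. Workers from conspecific nests held 17.97 CPM in MW21, 22.3 in MW25, 22.1 in MW40 and 18.7 in MW42, and workers from allospecific nests held 23.2 CPM in MW30, 18.4 in MW32, 25.9 in MW41 and 21.5 in MW47. The highest library stood 1.49-fold above the lowest, and in each worker group wasps lay both above and below every foundress trained to faces. The next members, PmetTSAr2.0-038192 (correlation -0.95) and PmetTSAr2.0-083838 (correlation -0.94), ran from 11.1 CPM in M1 to 25.3 CPM in MW41 and from 18.8 CPM in MW21 to 33.5 CPM in MW41. Both were thus highest in MW41, as the first 2 members were.

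**Figure D2:**
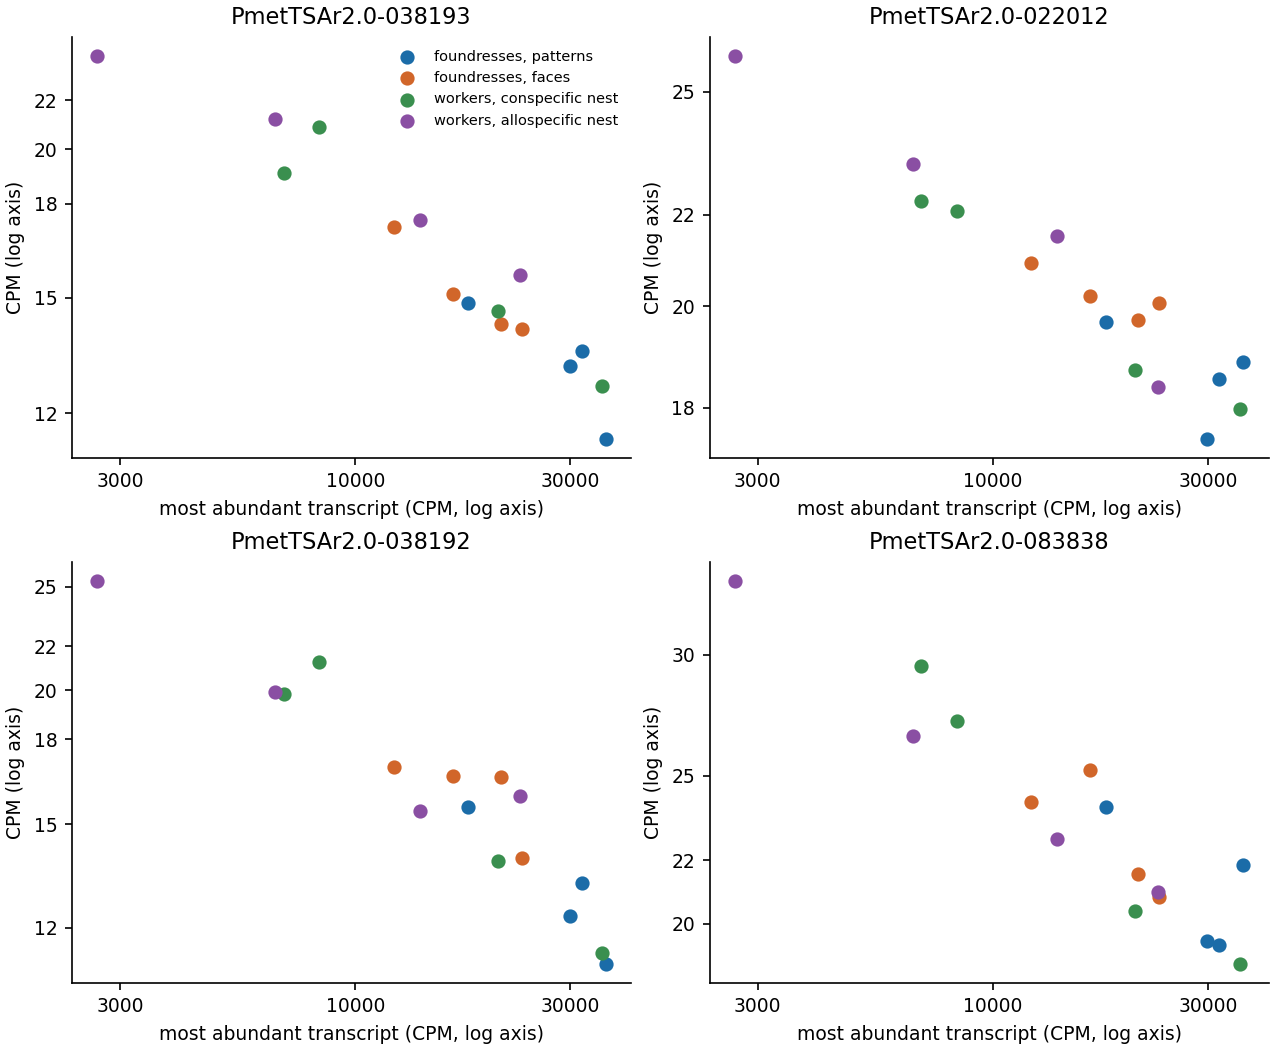
Level (CPM, log axis) of the 4 transcripts of lowest correlation against that of the most abundant transcript (CPM, log axis), with 1 point per wasp coloured by group. PmetTSAr2.0-038193 descends from 24.0 CPM in MW41, at the left, to 11.4 CPM in M1, at the right, and wasps of each group lie along the same band.

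The choice had no natural edge. PmetTSAr2.0-037601 and PmetTSAr2.0-073865, the last 2 members, had correlations of -0.8853 and -0.8851, and PmetTSAr2.0-065825 and PmetTSAr2.0-035683, the first 2 left out, had -0.8850 and -0.8848. PmetTSAr2.0-073865 was also the member with the most counts, at 197 CPM on average over the 16 wasps. It ran from 146 CPM in M1 to 262 CPM in MW41, the same end wasps as in PmetTSAr2.0-038193. Over all 55863 ranked transcripts the median correlation was -0.25, and 72.3% lay below 0. A negative correlation with the anchor on this scale was thus common, and the members were the far end of a broad distribution.

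Opposing transcripts varied little in size. From the lowest to the highest library the median member differed 1.81-fold, and 133 of the 200 differed by no more than 2-fold. The smallest range was 1.34-fold. The largest was 7.13-fold, in PmetTSAr2.0-062826, which was picked out after its values were seen and rested on only 10 to 61 counts per library. PmetTSAr2.0-004987, picked out in the same way, rested on 156 to 544 counts and still ranged 3.85-fold. It stood at 9.46, 14.0, 14.8 and 15.3 CPM in M1, M15, M4 and M5 and at 13.4, 12.6, 25.6 and 15.7 CPM in M30, M67, M79 and M91. Workers held 8.37, 23.6, 24.8 and 14.05 CPM in MW21, MW25, MW40 and MW42 and 26.5, 15.2, 32.2 and 17.3 CPM in MW30, MW32, MW41 and MW47. Among foundresses it was high in M79 alone, the foundress with the lowest anchor, and the groups overlapped. The median SD over wasps was 0.24 on the log2 scale for members and 0.28 for all ranked transcripts. From counting alone the median SD was 0.086 for members and 0.153 for all ranked transcripts, so these spreads carry unlike counting error. For each doubling of the anchor the level of the median member was lower by 0.21 on the log2 scale (slope -0.21), and slopes ran from -0.45 to -0.10. Among all ranked transcripts the median slope was -0.07.

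The members were mostly of middle to high level. Their mean level had a median of 15.1 CPM and ran from 0.848 to 197 CPM, beside a median of 4.97 CPM for all ranked transcripts. When all ranked transcripts were cut into 4 equal classes of mean level, 107 members (53.5%) lay in the highest class, above 14.7 CPM, and 78 (39.0%) in the next. Only 12 and 3 lay in the lower classes. Only 1 member, PmetTSAr2.0-037595, had under 10 counts in any library, with 6 at the lowest. A transcript with few counts carries more counting error, so the levels of members and the strength of their correlations are not separate facts.

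MW41 set the high end of most members, while the low end was spread over several wasps. The highest library was MW41 in 176 of the 200 members, and MW25, MW40 and MW30 in 8 each. The lowest was M1 in 84, MW21 in 56, M15 in 37, M5 in 14, M91 in 6, M4 in 2 and MW32 in 1. No member had its highest value in a foundress. The choice rewards members that are high in MW41, the wasp whose anchor lay farthest from the median. Without MW41 in the ranking, 97 of the 200 were chosen again, and without both MW41 and MW30 80 were chosen again. The median correlation of the 200 members was -0.86 in the 14 wasps left when MW41 and MW30 were taken out, beside -0.25 for all ranked transcripts. These 14 wasps had also entered the choice, so the value follows largely from it.

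**Figure D3:**
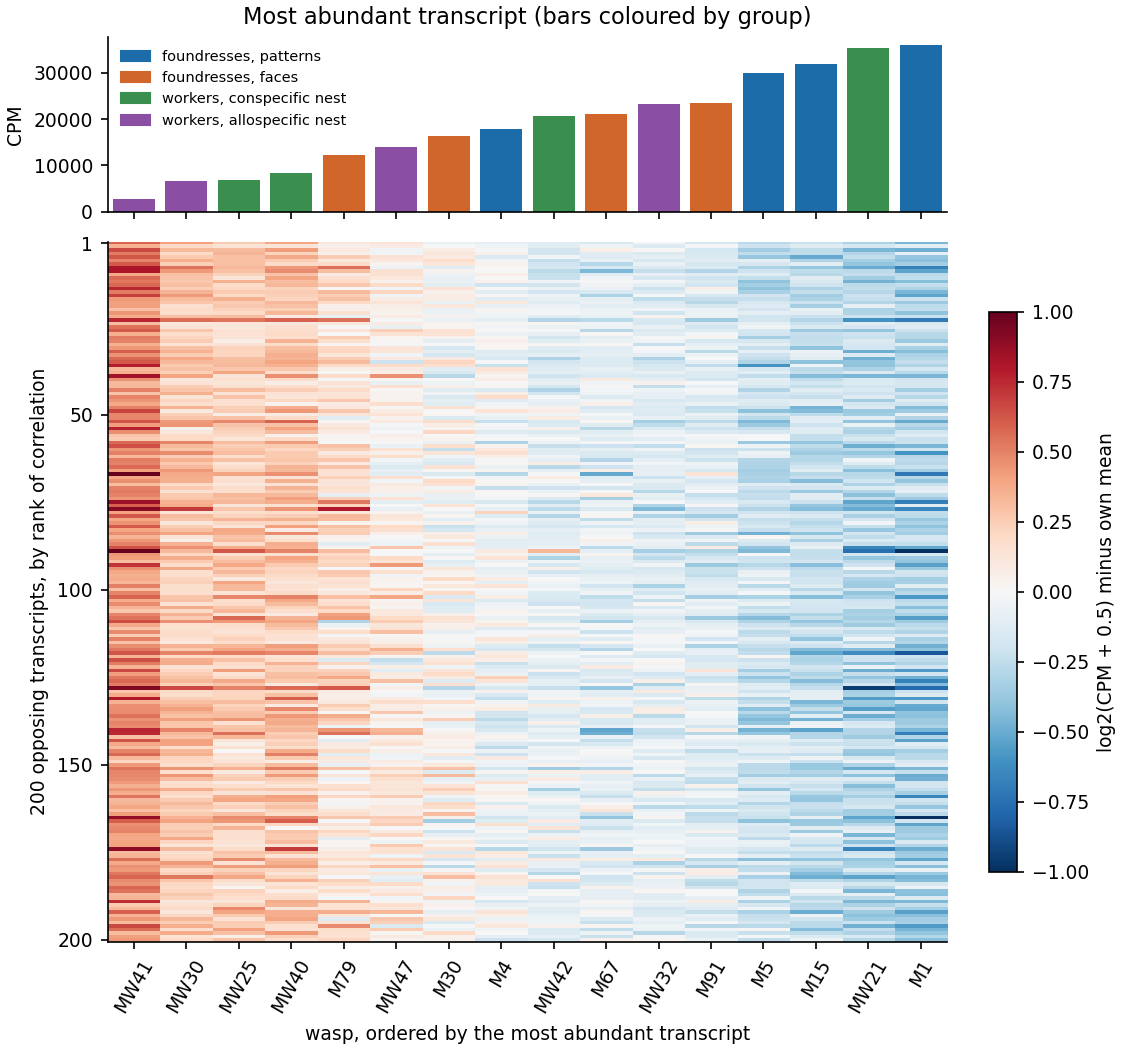
Deviation of each of the 200 opposing transcripts (rows, by rank of correlation) from its own mean over the 16 wasps, on the log2(CPM + 0.5) scale, with deviations beyond 1 drawn in the end colours. Wasps are ordered by the level of the most abundant transcript, drawn above in CPM, and the rows pass from high values in MW41 at the left to low values in MW21 and M1 at the right.

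The room that abundant transcripts leave for all others was measured beside the members. The 200 transcripts of highest correlation with the anchor, called the following transcripts, and the anchor itself together took 2.25% of the counts in MW41 and 19.5% in MW21. The share left for all other transcripts therefore differed between these wasps by 0.28 on the log2 scale. The median deviation of the 200 opposing transcripts from their own means ran from -0.31 in M1 to 0.47 in MW41, a span of 0.78 on the log2 scale. The median deviation of all ranked transcripts ran from -0.19 in MW21 to 0.12 in MW41, a span of 0.31. Relative to this median of all transcripts, the members ran from -0.23 in M15 to 0.35 in MW41, a span of 0.58. The same libraries had chosen the members, so a span wider than that of all transcripts follows largely from the choice.

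Levels were next taken relative to the counts left after the anchor and the 200 following transcripts were set aside. On that scale the median correlation of all ranked transcripts with the anchor was -0.04, and 53.5% lay below 0. The 200 members had a median of -0.83, with all 200 below 0 and the weakest at -0.44, in PmetTSAr2.0-036324. Their median slope was -0.13 for each doubling of the anchor, against -0.21 on the scale of all counts. The members' summed share of the remaining counts ran from 0.428% in M1 to 0.618% in MW41, a 1.44-fold range. Of the 200 members, 115 were again among the 200 of lowest correlation on this scale, and 102 were when TMM library sizes (edgeR's trimmed mean scaling) were used. The list of members thus changed with the scaling. The same libraries had chosen the members, so their correlation on this scale is also a description.

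Correlations of the members were also taken inside each caste. Among the 8 workers the members' correlations with the anchor ran from -0.99 to -0.84, with a median of -0.93, and among the 8 foundresses from -0.96 to -0.37, with a median of -0.83. With the mean of each of the 4 groups taken away from every value, the median was -0.88. All 16 wasps had entered the choice, which largely fixes such values, so they describe the members and show nothing of whether the relation holds within a caste or group. Ranked anew on deviations from group means, 81 of the 200 were chosen again.

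A choice by correlation in 1 caste was then read in the other, whose correlations had no part in it. The anchor and the count filter, however, came from all 16 libraries. The chosen transcripts were not matched in level to all ranked transcripts. Over 16 libraries the median correlation of all ranked transcripts was -0.08 in the lowest class of mean level and -0.38 in the highest. The 200 transcripts of lowest correlation in the 8 foundresses had a median correlation of -0.80 in the 8 workers, where all ranked transcripts had a median of -0.36, and 195 of the 200 lay below 0, against 70.6% of all. The 200 of lowest correlation in the 8 workers had a median of -0.70 in the 8 foundresses, where all ranked transcripts had -0.17, and 188 lay below 0, against 61.1% of all. With the anchor and its 200 followers in the choosing caste set aside from the totals, 200 transcripts were chosen anew in each caste. Their medians in the other caste were -0.74 in workers and -0.54 in foundresses, beside -0.26 and 0.04 for all ranked transcripts. These lists need not hold the same transcripts as the first lists, so the medians are not a rescaling of the earlier ones. On the scale of all counts, the lists from foundresses and workers shared 5 transcripts, 2.50% of each. They shared 13 and 37 with the 200 chosen on all wasps. Each list was 200 of the ranked transcripts, 55863 in foundresses and 55862 in workers. How many transcripts unrelated lists would share was not computed. The medians come from correlations across 8 libraries each, whose points share the anchor and the library totals, and no p is given for them.

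**Figure D4:**
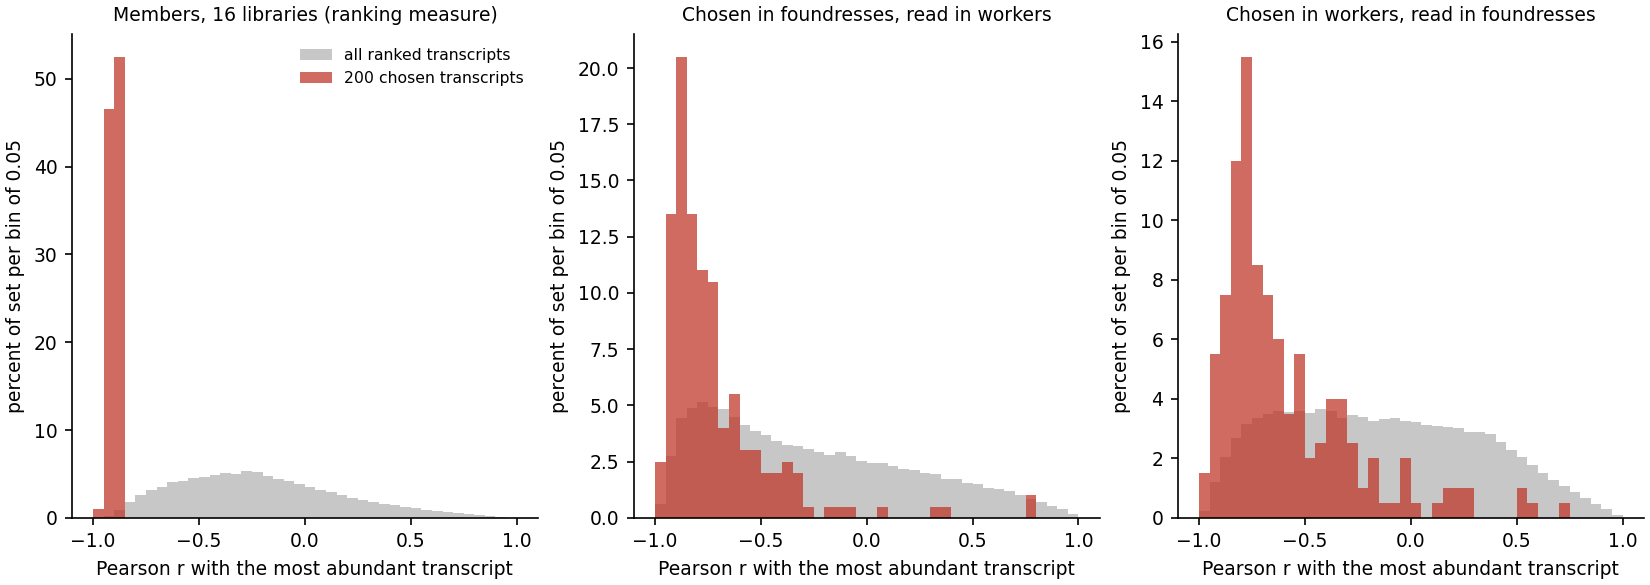
Percent of transcripts per bin of 0.05 in Pearson correlation with the most abundant transcript, for all ranked transcripts (grey) and for 200 chosen transcripts (red). At the left the red bars are the ranking measure itself over 16 wasps. In the middle and at the right transcripts chosen in 1 caste are read in the other, with medians of -0.80 in workers and -0.70 in foundresses, and the grey medians are -0.36 and -0.17.

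The members also moved together. Over the 19900 pairs of members the correlation ran from 0.64 to 0.98, with a median of 0.84, which follows largely from the choice. After the line on the anchor was removed from each member, the median pair had a correlation of 0.13, and 1629 pairs lay above 0.5. Some members were neighbours in the numbering of the transcript set. Joined where numbers lay at most 3 apart, the 200 members fell into 164 runs, of which 28 held 2 or more members, 64 members in all, and 136 members stood alone. Neighbouring numbers can be pieces or variants of 1 gene that share reads, so the 200 transcripts are not 200 genes.

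The longest runs of neighbours held 4 members each. PmetTSAr2.0-038187, PmetTSAr2.0-038190, PmetTSAr2.0-038192 and PmetTSAr2.0-038193 stood at 18.9, 15.9, 16.2 and 16.2 CPM on average, ranked 66, 11, 3 and 1 by correlation with the anchor, and every pair of them correlated at 0.92 or more. PmetTSAr2.0-041399, PmetTSAr2.0-041400, PmetTSAr2.0-041402 and PmetTSAr2.0-041403 stood at 8.18, 11.3, 9.57 and 8.18 CPM, with every pair at 0.87 or more. Both runs were picked out for their length. Their members are uncertain as separate genes, and so are PmetTSAr2.0-022012 and PmetTSAr2.0-083838, which each formed a run of 3. The 200 following transcripts fell into 134 runs, the longest of 13.

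The following transcripts ranged more widely than the opposing ones in these libraries. Their median range over the 16 wasps was 5.32-fold, beside 1.81-fold, and their median slope on the anchor was 0.48, beside -0.21. Their mean level had a median of 23.7 CPM, beside 15.1 CPM. Both sets were chosen on the same anchor, and the difference between them was not tested.

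The 3 comparisons of the study were fitted on all 55226 transcripts that passed edgeR's filter on low counts, and all 200 members were among them. The groups played no part in choosing the members, but the same 16 libraries did, so a difference in the anchor between groups carries over to the members. The anchor's own differences are therefore given beside theirs.

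Foundresses trained to faces and to patterns were compared to ask what goes with the stimulus learned. Of the 200 members 191 had a higher fitted level in faces, beside 50.6% of all tested transcripts. Log2 differences of the members had a median of 0.12 and ran from -0.06 to 0.51, and for all tested transcripts the median was 0.00. None of the 200 members passed edgeR's quasi-likelihood test with Benjamini-Hochberg adjustment, where the lowest adjusted p among them was 0.381, in PmetTSAr2.0-058311, and 0% of all transcripts passed. That member stood at 8.72, 7.98, 9.33 and 8.19 CPM in M1, M15, M4 and M5 and at 13.5, 10.1, 13.8 and 10.8 CPM in M30, M67, M79 and M91, so the groups did not overlap in it. At an unadjusted p under 0.05 there were 5 members (2.50%), all higher in faces, beside 10.3% of all transcripts in either direction and 4.67% with faces higher. DESeq2 called 0 members and 0.252% of all transcripts, and limma-voom called 0 of both. The CPM values of the groups did not overlap in 22 members (11%), all higher in faces, beside 6.17% of all transcripts in either direction and 4.05% with faces higher. These CPM values use the column total, without the TMM scaling of the fit. The following transcripts took 10.7% ± 2.69 of the counts in patterns and 6.25% ± 1.15 in faces (SD, n = 4 each). Their part in the lack of overlap was not tested. The anchor stood at 28867 ± 7813 CPM in patterns and 18255 ± 4979 CPM in faces (SD, n = 4 each), which gave a log2 difference of -0.73 ± 0.65 (SE; edgeR adjusted p = 0.711). PmetTSAr2.0-038193 stood at 13.2 ± 1.41 CPM in patterns and 15.2 ± 1.43 CPM in faces (SD, n = 4 each), which gave a log2 difference of 0.14 ± 0.13 (SE; edgeR adjusted p = 0.718).

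Workers from allospecific and conspecific nests were compared to ask what goes with the social surroundings. In 173 of the 200 members the fitted level was higher on allospecific nests, beside 49.3% of all tested transcripts. Log2 differences of the members had a median of 0.07 and a range of -0.09 to 0.39, beside a median of -0.00 for all tested transcripts. The median of the members rested on single workers: it was 0.00 without MW41, 0.03 without MW42, 0.05 without MW21 and up to 0.15 without MW32. None of the members passed edgeR's test (lowest adjusted p 1.00), as 0% of all transcripts did. No member had an unadjusted p under 0.05, beside 2.29% of all transcripts. DESeq2 called 0 members and 0.00181% of all transcripts, and limma-voom called 0 of both. The CPM values of the nests overlapped in all 200 members, and did not in 1.34% of all transcripts. PmetTSAr2.0-038193 stood at 16.8 ± 3.82 CPM on conspecific and 19.6 ± 3.72 CPM on allospecific nests (SD, n = 4 each), which gave a log2 difference of 0.16 ± 0.13 (SE; edgeR adjusted p = 1.00). The anchor stood at 17820 ± 13218 CPM on conspecific and 11605 ± 9035 CPM on allospecific nests (SD, n = 4 each), which gave a log2 difference of -0.75 ± 0.65 (SE; edgeR adjusted p = 1.00). The difference was -0.03 without MW21, -0.40 without MW41 and -1.36 without MW32, so that it too rested on single workers.

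Workers and the foundresses that had learned the same faces were compared to ask what goes with caste, together with season and the move to another nest. In 191 of the 200 members the fitted level was higher in workers, beside 51.8% of all tested transcripts. Log2 differences of the members had a median of 0.12 and a range of -0.04 to 0.51, beside a median of 0.01 for all tested transcripts. The median of the members was 0.05 without M91 and 0.06 without MW41. None of the members passed edgeR's test, where the lowest adjusted p among them was 0.0798, while 3.73% of all transcripts passed. At an unadjusted p under 0.05 there were 10 members (5%), all higher in workers, beside 19.9% of all transcripts in either direction and 11.3% with workers higher. Limma-voom called 0 members and 3.43% of all transcripts. CPM values of workers and these foundresses overlapped in all 200 members and did not in 2.9% of all transcripts. PmetTSAr2.0-038193 differed by 0.24 ± 0.11 on the log2 scale (SE) with an edgeR adjusted p of 0.240. The anchor had a difference of -0.30 ± 0.56 (SE) with an edgeR adjusted p of 0.822, and with 1 wasp left out it ran from -0.14 (MW41) to -0.68 (MW21).

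DESeq2 called 1 member between workers and foundresses trained to faces, PmetTSAr2.0-066472, at a log2 difference of 0.28 ± 0.09 (SE, adjusted p = 0.0428), where it called 6.4% of all transcripts (3.49% higher in workers). The foundresses trained to faces held 18.9 CPM of it in M91, 20.7 in M67, 21.1 in M30 and 21.5 in M79. The 8 workers ran from 20.5 CPM in MW21 through a median of 26.0 to 31.4 CPM in MW41. MW21 and MW32 lay within the range of these foundresses and the other 6 workers lay above it. By edgeR the log2 difference was 0.30 ± 0.09 (SE) with an adjusted p of 0.0798.

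**Figure D5:**
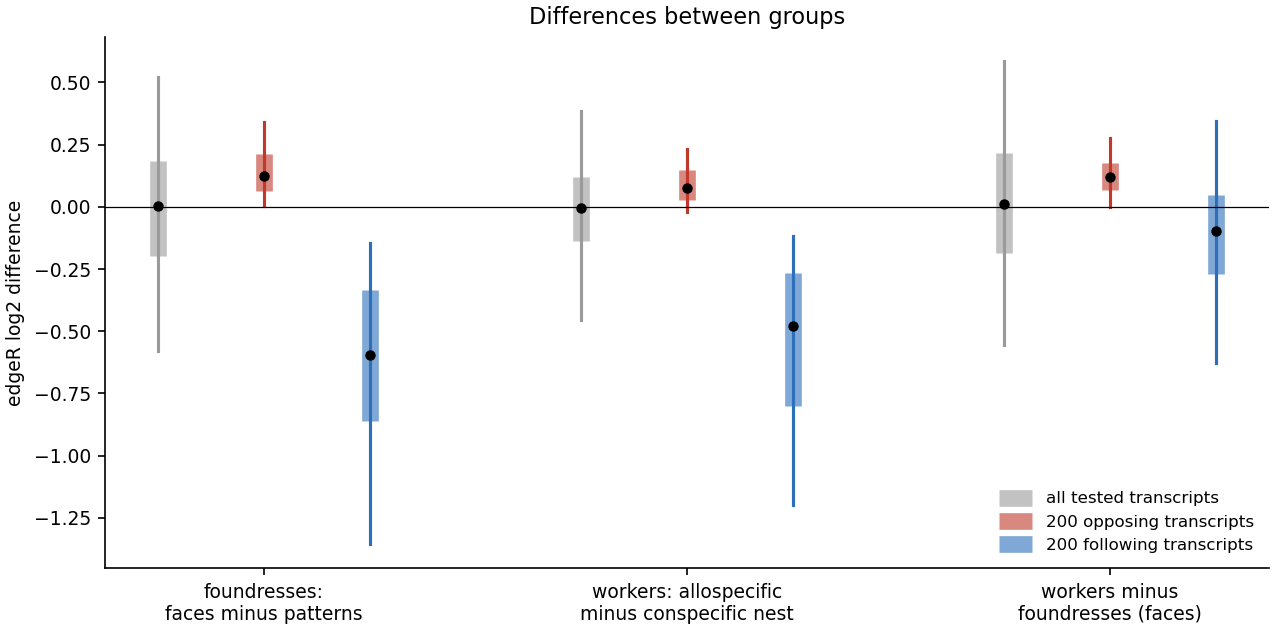
Fitted edgeR log2 differences in the 3 comparisons for all tested transcripts (grey), the 200 opposing transcripts (red) and the tested ones among the 200 following transcripts (blue), with the median as a point, the middle 50% as a bar and the 5th to 95th percentile as a line. The medians of the opposing transcripts lie at 0.12, 0.07 and 0.12, and those of the following transcripts at -0.60, -0.48 and -0.10.

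Members had a smaller fitted error than all tested transcripts in each comparison. Their median SE was 0.13 on the log2 scale in the comparisons of stimulus and of nest and 0.11 in that of caste, and the median SE of all tested transcripts was 0.21, 0.21 and 0.18. Members also stood higher in level, with a median of 15.1 CPM beside 4.97 CPM for all ranked transcripts. The SE values were not matched for level. The share of a member's squared deviations that lay between the 4 groups had a median of 34.4% over the members and of 24.0% over all ranked transcripts, and it was 36.2% for the anchor. Most of the variation of the opposing transcripts thus lay between wasps of the same group.

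Depth was set beside the anchor. Across the 16 libraries Pearson's r between the log2 total count and the anchor's log2(CPM + 0.5) was 0.45 (permutation p = 0.0863, two-sided, adjusted p = 0.518 over 6 such tests), and Spearman's rho was 0.25 (permutation p = 0.347, adjusted p = 0.849). Without the 2 libraries whose total lay farthest from the median, r was 0.33. Within castes, r was 0.13 in foundresses (exact permutation p = 0.754, adjusted p = 0.977) and 0.33 in workers (exact permutation p = 0.425, adjusted p = 0.849), with n = 8 each. Spearman's rho was 0.02 in foundresses (exact permutation p = 0.977) and 0.10 in workers (exact permutation p = 0.840). The part of depth in the opposing transcripts was not tested further.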

How the data were processed

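Per the labels' protocols, each brain gave its own total RNA, of which 1 µg was used with a TruSeq kit (Illumina) to build a library. Per the submitters' processing notes, Trimmomatic 0.32, Bowtie2 and eXpress were used; options, transcript set, treatment of shared reads and strandedness were not given in the sources used here. Whole-number counts were deposited by the authors per transcript identifier, without normalization, and may be rounded estimates. Columns were matched to wasps by the wasp name in the sample title.

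CPM values use the column total. Correlations and levels were computed with Python 3.11.15, numpy 2.4.6, pandas 2.3.3 and scipy 1.17.1. Group differences come from edgeR 4.0.16 under R 4.3.3 (filterByExpr, TMM, robust quasi-likelihood F test) in 1 fit of 16 libraries with 4 group means and Benjamini-Hochberg adjustment over 55226 transcripts at a threshold of 0.05. SE is the log2 difference divided by the square root of F. Counting SD is the mean over libraries of the Poisson error of a log2 count. Alternatives were DESeq2 1.42.0, limma 3.58.1 voom, other scalings and filters, the groups compared alone, and each wasp left out. The code of the fits and the ranking was run on simulated data with planted changes larger than those of any member. Those runs checked the code and do not show how well changes as small as the members' would be found. Within groups, 24 pairs of libraries were compared by chi-square, which per degree of freedom was 6.72 or more, so none of these pairs agreed within sampling noise; pairs across groups were not compared. Named were the anchor, the 4 lowest correlations, the member with the most counts, and 2 transcripts on either side of the threshold. Other names were chosen after their values were seen. The members, sets and comparisons were chosen with earlier results of these data known.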

Additional observations from a re-analysis of the deposited data

Results flagged for a closer look

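Among 52 groups of 4 values examined, 2 had a wasp far from the other 3, where chance marks about 1 in 20. PmetTSAr2.0-038192 stood at 13.9 CPM in M91, below 16.6 to 16.97 CPM in the other foundresses trained to faces. PmetTSAr2.0-065825, the first transcript left out of the 200, stood at 3.49 CPM in M4, above 1.93 to 2.11 CPM in the other foundresses trained to patterns.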

How the results depend on the processing

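How many of the 200 members were chosen again varied most with the wasps used: 13 in the 8 foundresses alone, 37 in the 8 workers alone, 80 without MW41 and MW30 (an alternative added after seeing the data), and 97 to 176 with 1 wasp left out, the lowest without MW41. It was 76 by Spearman correlation, 81 from deviations from group means, 102 with TMM sizes and 115 without the anchor and its followers in the totals, and 194 or more with a pseudocount of 2 or other count filters. No member was called by edgeR or limma-voom in any comparison under these settings; DESeq2 called 1 between castes. All transcripts called for caste moved from 2060 to 3536 by DESeq2 and 1288 in a fit of the groups compared. With 1 wasp left out they ran from 398 to 2803 (398 for M30, 765 for M91, 1196 for MW41, 1287 for MW42, 1364 for MW25, 2803 for MW30). The share of calls higher in workers moved from 59.7% to 47.9% without the anchor and followers and 43.1% in the groups compared. With 1 wasp left out it fell to 29.7% (M91), 35.7% (M30), 42.1% (MW21), 42.8% (MW32), 44.2% (M1), 44.4% (M5), 46.3% (MW41) or 46.4% (M15). With any other wasp left out most calls were higher in workers. The side that held most calls thus changed, among calls that also differed in number. Whether single transcripts changed sign was not tested. For stimulus DESeq2 called 139 and leaving out 1 wasp 0 to 11; for nest DESeq2 called 1 and leaving out 1 wasp 0. The members' median log2 difference stayed above 0 under all these settings, down to 0.00 for nest without MW41. The anchor's own fitted difference lay below 0 in each comparison. The members were chosen on all 16 libraries, wasps left out here included, so the opposite sign follows largely from the choice. Members at few counts are limited by depth: counting SD reached 0.39 on the log2 scale. No paired analysis was possible because groups share at most 1 wasp number.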
